A study of Lactuca sativa with 9 samples.

Results

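Jasmonate synthesis was followed in lettuce leaves through 10 genes that encode its enzymes, out of 38910 annotated genes. They were 3 phospholipase A1 genes (PLA1), lipoxygenase (LOX), allene oxide synthase (AOS), allene oxide cyclase (AOC), OPC-8:0 CoA ligase 1 (OPCL1), a 3-ketoacyl-CoA thiolase (ACAA1, also called KAT), jasmonic acid-amino acid synthetase (JAR1) and an S-adenosyl-L-methionine-dependent methyltransferase (SAM-MTase). The study listed them as higher in ‘Okeechobee’ than in 60184, so these levels chose the genes. RNA was sequenced from the first fully expanded leaf of romaine plants at maturity, before any storage, with 3 replicates per genotype. The breeding line 60184 has a short shelf-life (SSL), the cultivar ‘Manatee’ an intermediate one (ISL) and the cultivar ‘Okeechobee’ a long one (LSL). All plants grew in chambers at 22 °C with a 16 h day, and no plant was treated. Each genotype is a single line, so shelf-life cannot be told apart from any other way in which the 3 genotypes differ.

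Jasmonates are lipid-derived hormones that leaves make from the linolenic acid of chloroplast membranes. A lipase frees the fatty acid, LOX adds oxygen to it, and AOS and AOC turn the product into 12-oxo-phytodienoic acid (OPDA) in the chloroplast. OPDA moves to the peroxisome, where a reductase (OPR3 in Arabidopsis) and rounds of β-oxidation shorten it to jasmonic acid. JAR1 joins jasmonic acid to isoleucine, which gives the form that the COI1 receptor binds, and a carboxyl methyltransferase can instead give volatile methyl jasmonate. In leaves the hormone is best known for the response to wounding and insects, and it also takes part in senescence.

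Levels are given in CPM, the reads of a gene per 1000000 gene reads after TMM scaling, which evens out library composition. Gene counts totalled 24108451 to 32840811 per library, and every member was above 0 in all 9 libraries. Gene lengths were not used here, so levels are compared between libraries and not between genes. Each member is given its full identifier once, and later identifiers leave out the shared prefix Lsat_1_v5_gn. Values within a genotype are in the order of replicates 1, 2 and 3. In bulk leaf RNA, more or fewer cells of a type and more or less RNA per cell cannot be told apart.

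Across the 3 genotypes, all 10 members had their lowest mean in 60184 and their highest in ‘Okeechobee’. ‘Manatee’ took up 2 positions between them. For 6 members (both PLA1-Iβ2 genes, LOX, AOS, AOC and OPCL1) its mean log2 CPM lay 60.8% to 85.7% of the way from 60184 to ‘Okeechobee’. For the other 4 (PLA1-IIδ, ACAA1, JAR1 and SAM-MTase) it lay 9.26% to 24.9% of the way. The summed level of the 10 genes was 790 to 1016 CPM in 60184 and 3825 to 6389 CPM in ‘Okeechobee’. In ‘Manatee’ it was 1863, 6147 and 2164 CPM. LOX and AOC made up 61.3% to 78.6% of this sum in each library, so it mostly follows those 2 genes.

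**Figure D1:**
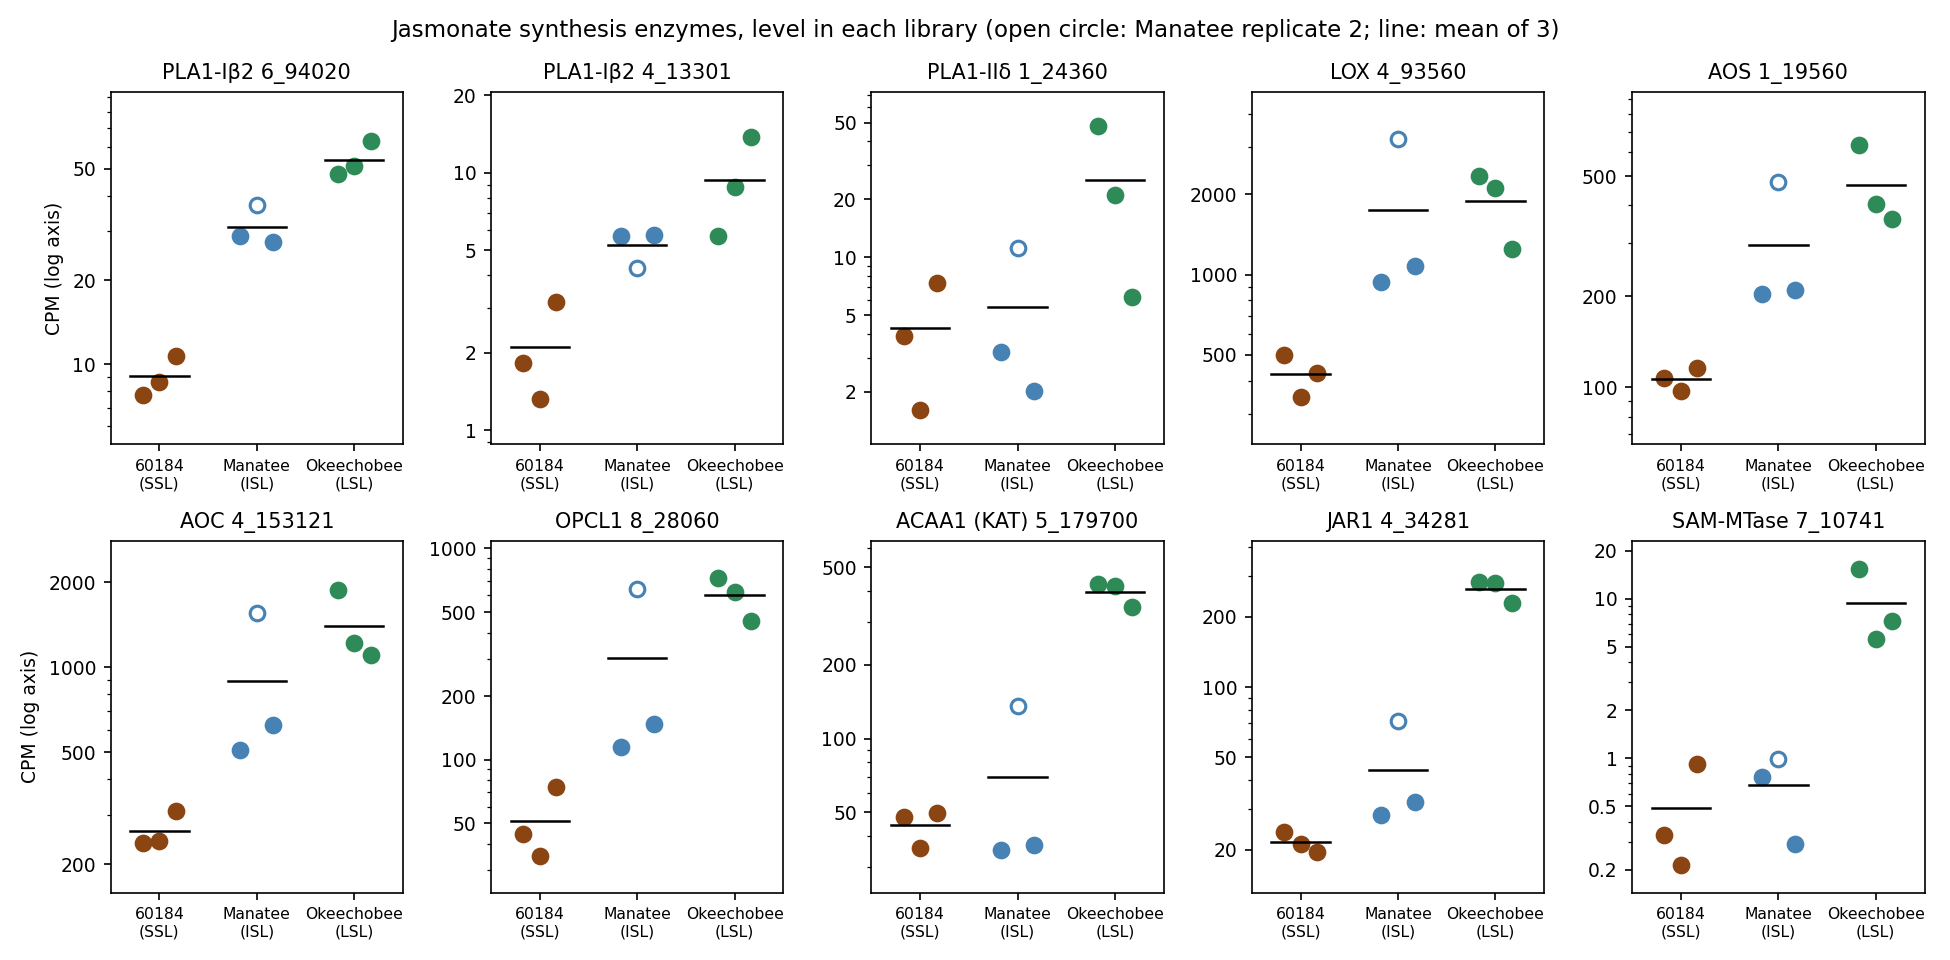
Level of each of the 10 jasmonate synthesis genes in the 9 libraries, in CPM on a log axis, with 1 point per library and a line at the mean of 3. ‘Okeechobee’ (LSL) had the highest mean in all 10 panels, and ‘Manatee’ replicate 2, the open circle, stood above replicates 1 and 3 in 9 of them.

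The first step releases the fatty acid. PLA1-Iβ2 (Lsat_1_v5_gn_6_94020), a lipase of the phospholipase A1 family, was at 7.76, 8.67 and 10.7 CPM in 60184, at 28.8, 37.2 and 27.3 CPM in ‘Manatee’ and at 47.9, 51.1 and 62.7 CPM in ‘Okeechobee’. With JAR1, it was the only member whose libraries fell into 3 separate ranges, lowest in SSL and highest in LSL. The second PLA1-Iβ2 gene (Lsat_1_v5_gn_4_13301) was at 1.83, 1.33 and 3.15 CPM in 60184, at 5.68, 4.28 and 5.73 CPM in ‘Manatee’ and at 5.67, 8.79 and 13.7 CPM in ‘Okeechobee’. Every ‘Manatee’ and ‘Okeechobee’ library of this gene lay above every 60184 library, while those of the 2 cultivars overlapped.

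PLA1-IIδ (Lsat_1_v5_gn_1_24360), another lipase of the family, was the least even member. It was at 3.90, 1.60 and 7.39 CPM in 60184, at 3.21, 11.2 and 2.03 CPM in ‘Manatee’ and at 48.1, 21.0 and 6.25 CPM in ‘Okeechobee’. The highest library of ‘Okeechobee’ was 7.71 times its lowest, and that lowest library lay below replicate 3 of 60184. It was the only member whose ‘Okeechobee’ and 60184 libraries overlapped.

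LOX (Lsat_1_v5_gn_4_93560), which oxygenates linolenic acid, was at 501, 348 and 426 CPM in 60184, at 935, 3211 and 1079.7 CPM in ‘Manatee’ and at 2328, 2101 and 1244 CPM in ‘Okeechobee’. Its highest library of all 9 was ‘Manatee’ replicate 2, and the other ‘Manatee’ libraries lay between the ranges of the other genotypes. AOS (Lsat_1_v5_gn_1_19560), which makes the unstable allene oxide from the LOX product, was at 107, 97.3 and 116 CPM in 60184, at 203, 476 and 209.9 CPM in ‘Manatee’ and at 632, 403 and 362 CPM in ‘Okeechobee’. AOC (Lsat_1_v5_gn_4_153121), which closes the ring to give OPDA, was at 238, 241 and 309 CPM in 60184, at 508, 1557 and 622 CPM in ‘Manatee’ and at 1872, 1212 and 1099 CPM in ‘Okeechobee’. For these 3 chloroplast enzymes 60184 stood apart below both cultivars, and ‘Manatee’ replicate 2 was inside or above the range of ‘Okeechobee’.

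OPCL1 (Lsat_1_v5_gn_8_28060), which activates the reduced intermediate with coenzyme A before β-oxidation, was at 44.3, 35.2 and 73.9 CPM in 60184, at 115, 642 and 148 CPM in ‘Manatee’ and at 727, 624 and 456 CPM in ‘Okeechobee’. It had the same form as AOS and AOC, with 2 ‘Manatee’ libraries between the other genotypes and replicate 2 within ‘Okeechobee’. ACAA1 (Lsat_1_v5_gn_5_179700), the thiolase that cuts off 2 carbons in each round of β-oxidation, was the only member that the study also followed by RT-qPCR. Its primer pair is shown because it is the sequence that ties this transcript to an assay; both are the designed oligonucleotides, 5′ to 3′, of 23 and 22 bases.
ACAA1 forward: tcaacctactgcttcatctaatc
ACAA1 reverse: catcaggaagagtgtccttaaa

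ACAA1 was at 48.0, 35.6 and 49.5 CPM in 60184, at 35.2, 136 and 36.9 CPM in ‘Manatee’ and at 428, 417 and 345 CPM in ‘Okeechobee’. Replicates 1 and 3 of ‘Manatee’ lay within or just below the range of 60184, and no library outside ‘Okeechobee’ reached 345 CPM. JAR1 (Lsat_1_v5_gn_4_34281) was at 23.9, 21.3 and 19.6 CPM in 60184, at 28.2, 71.6 and 32.1 CPM in ‘Manatee’ and at 284, 280.2 and 229 CPM in ‘Okeechobee’. Its 3 ranges did not overlap, and the ‘Manatee’ libraries lay much nearer to 60184 than to ‘Okeechobee’. ACAA1 and JAR1 were also the most even members in ‘Okeechobee’, where the highest library was 1.24 times the lowest for each.

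SAM-MTase (Lsat_1_v5_gn_7_10741) was listed by the study with the jasmonate synthesis genes, and the supplementary description of the gene names salicylate and benzoate, not jasmonate, as its substrates. It was at 0.333, 0.216 and 0.920 CPM in 60184, at 0.770, 0.990 and 0.289 CPM in ‘Manatee’ and at 15.5, 5.58 and 7.30 CPM in ‘Okeechobee’. These levels rest on 48 reads in all 3 libraries of 60184, 61 in those of ‘Manatee’ and 814 in those of ‘Okeechobee’. The libraries of 60184 and ‘Manatee’ overlapped, and both lay below every ‘Okeechobee’ library.

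As a description of the contrast that chose the genes, the log2 difference of ‘Okeechobee’ from 60184 ran from 2.13 for AOS to 4.25 for SAM-MTase. All 10 members passed an adjusted p under 0.05 as higher, where 16.2% of the 22113 tested genes did. SAM-MTase had 10, 7 and 31 reads in 60184, under the filter of 10 counts in 3 libraries, so it entered this test through its ‘Okeechobee’ libraries. For 9 of 10, every ‘Okeechobee’ library lay above every 60184 library, where 24.7% of tested genes did so. The count of 10 passing members fell to 9, with PLA1-IIδ lost, without any single replicate of 60184 or without replicate 1 or 2 of ‘Okeechobee’, and with no filter on low counts. The study kept genes with a log2 fold change of at least 2. Just inside that threshold lay AOS at 2.13, LOX at 2.16 and PLA1-Iβ2 (4_13301) at 2.16. Just outside it lay the gene matched to Arabidopsis OPR3 (5_141041), at 1.88. The median over the members was 2.56, beside 0.01 over all tested genes.

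‘Manatee’ was compared with 60184 to see whether an intermediate genotype shared these levels. The ‘Manatee’ libraries played no part in choosing the genes, but the 60184 libraries did. By edgeR’s quasi-likelihood test with Benjamini-Hochberg adjustment over 22062 genes, 6 of 10 members were higher in ‘Manatee’, where 10.3% of all tested genes were. They were the members of the first steps up to OPCL1, apart from PLA1-IIδ. All 10 estimates were above 0, with a median log2 fold change of 1.40 beside -0.0072 over all genes. For 7 of 10, every ‘Manatee’ library lay above every 60184 library, where 22.3% of tested genes did so.

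The largest estimate of this comparison belonged to OPCL1, with a log2 fold change of 2.58 ± 0.69 (SE, 3 libraries a genotype, edgeR adjusted p = 0.040). LOX followed with 2.05 ± 0.48 (adjusted p = 0.028), PLA1-Iβ2 (6_94020) with 1.79 ± 0.19 (adjusted p = 0.0012) and AOC with 1.78 ± 0.43 (adjusted p = 0.029). AOS rose by 1.49 ± 0.34 (adjusted p = 0.026) and PLA1-Iβ2 (4_13301) by 1.32 ± 0.34 (adjusted p = 0.036). The other 4 members did not pass. JAR1 was at 1.04 ± 0.35 (adjusted p = 0.074) although its libraries did not overlap, ACAA1 at 0.66 ± 0.52 (adjusted p = 0.39), SAM-MTase at 0.48 ± 0.69 (adjusted p = 0.65) and PLA1-IIδ at 0.37 ± 0.73 (adjusted p = 0.75).

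The count of 6 depended on single libraries. It was 1, 1 and 2 without replicates 1, 2 and 3 of 60184 and 6, 7 and 5 without those of ‘Manatee’, while the share of all genes called higher was 4.43%, 3.55%, 4.01%, 8.01%, 10.4% and 7.16% in turn. PLA1-Iβ2 (6_94020) was the only member called in each of these 6 fits.

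‘Okeechobee’ was next compared with ‘Manatee’, a comparison in which the ‘Okeechobee’ libraries helped to choose the genes. By the same edgeR test, 4 of 10 members were higher in ‘Okeechobee’, where 4.54% of the 21937 tested genes were. For the same 4, every ‘Okeechobee’ library lay above every ‘Manatee’ library, where 16.5% of tested genes did so. They were ACAA1 and JAR1 of the last steps, SAM-MTase and a lipase. SAM-MTase had a log2 fold change of 3.82 ± 0.57 (edgeR adjusted p = 0.011), JAR1 of 2.61 ± 0.38 (adjusted p = 0.0098) and ACAA1 of 2.54 ± 0.55 (adjusted p = 0.038). PLA1-Iβ2 (6_94020) also passed, with 0.82 ± 0.17 (adjusted p = 0.033). SAM-MTase had 24, 28 and 9 reads in ‘Manatee’, under the filter of 10 counts in 3 libraries, so it entered this test through its ‘Okeechobee’ libraries and had to be high there.

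The other 6 members had positive estimates that did not pass. PLA1-IIδ was at 2.22 ± 0.86 (edgeR adjusted p = 0.16), OPCL1 at 1.03 ± 0.64 (adjusted p = 0.36), PLA1-Iβ2 (4_13301) at 0.87 ± 0.34 (adjusted p = 0.16) and AOS at 0.68 ± 0.40 (adjusted p = 0.33). AOC was at 0.67 ± 0.46 (adjusted p = 0.41) and LOX at 0.15 ± 0.52 (adjusted p = 0.89). The median over the members was 0.95, beside 0.02 over all genes. The count of 4 became 1, 6 and 1 without replicates 1, 2 and 3 of ‘Manatee’ and 2 without any of the 3 ‘Okeechobee’ replicates, where 1.55%, 5.99%, 1.25%, 1.88%, 1.21% and 1.95% of all genes were called higher. Both comparisons share the ‘Manatee’ libraries, so their values are set side by side and not related to each other.

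**Figure D2:**
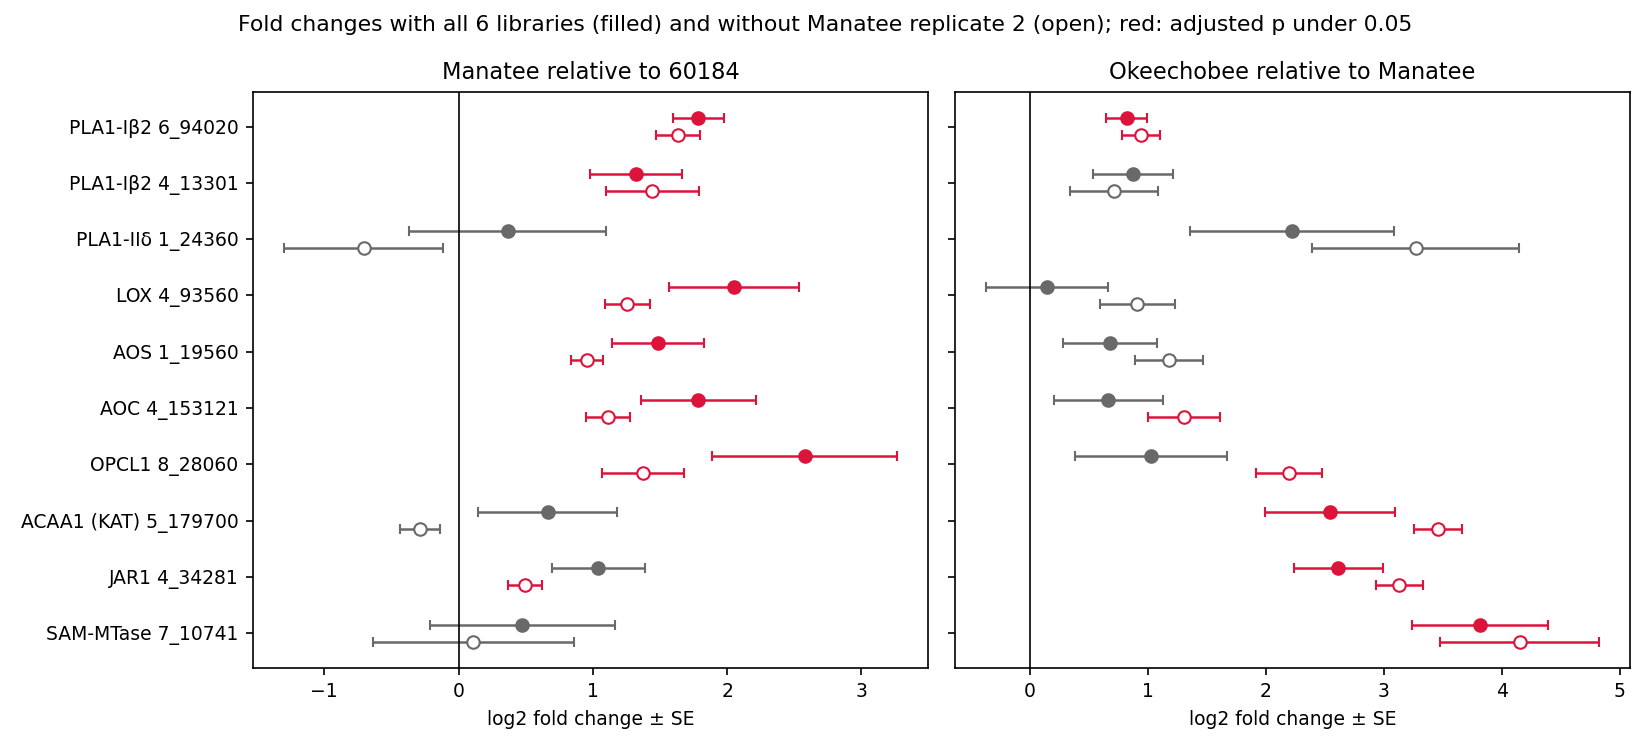
Log2 fold change ± SE of each member in ‘Manatee’ relative to 60184 (left) and ‘Okeechobee’ relative to ‘Manatee’ (right), with all 6 libraries (filled) or without ‘Manatee’ replicate 2 (open), and red where the adjusted p was under 0.05. PLA1-Iβ2 (6_94020) was red in every position, while ACAA1 and SAM-MTase were red only on the right.

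‘Manatee’ replicate 2 stood apart from its genotype in these genes. There, 7 of 10 members were at least 2 times higher than in either other ‘Manatee’ library, as were 4.51% of 22658 genes (this rule was chosen after the levels had been seen). Relative to the mean of replicates 1 and 3, OPCL1 was 4.87 times higher, PLA1-IIδ 4.30 times, ACAA1 3.77 times, LOX 3.19 times and AOC 2.76 times. JAR1 was 2.37 times and AOS 2.31 times higher. SAM-MTase at 1.87 times and PLA1-Iβ2 (6_94020) at 1.33 times did not reach the factor of 2, and PLA1-Iβ2 (4_13301) was lower there, at 0.750 times. In no other library did more than 2 of 10 members exceed both other libraries of its genotype in this way, the 2 being PLA1-IIδ and SAM-MTase in ‘Okeechobee’ replicate 1, where 2.95% of genes did.

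Without ‘Manatee’ replicate 2 the difference from 60184 became smaller for 9 members, all but PLA1-Iβ2 (4_13301). LOX came to 1.26 ± 0.17 (edgeR adjusted p = 0.0014), OPCL1 to 1.37 ± 0.31 (adjusted p = 0.024), AOC to 1.11 ± 0.17 (adjusted p = 0.0025) and AOS to 0.96 ± 0.12 (adjusted p = 0.0010). JAR1 passed the test at 0.49 ± 0.13 (adjusted p = 0.028). ACAA1 and PLA1-IIδ turned in direction, to -0.29 ± 0.15 (adjusted p = 0.21) and -0.71 ± 0.59 (adjusted p = 0.45), and neither passed. Against ‘Okeechobee’, OPCL1 then passed with 2.19 ± 0.28 (adjusted p = 0.0093) and AOC with 1.31 ± 0.30 (adjusted p = 0.048), while LOX at 0.91 ± 0.32 did not (adjusted p = 0.13).

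The position of ‘Manatee’ also moved without that library. The 6 members nearer to ‘Okeechobee’ with all libraries then lay 39.6% to 70.6% of the way from 60184, and OPCL1 at 39.6%, AOS at 45.8% and AOC at 46.6% were now nearer to 60184. The other 4 members lay -20.8% to 13.4% of the way, so the ranges of the 2 sets still did not overlap. Both sets were named after their values had been seen, so this is a description without a test.

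**Figure D3:**
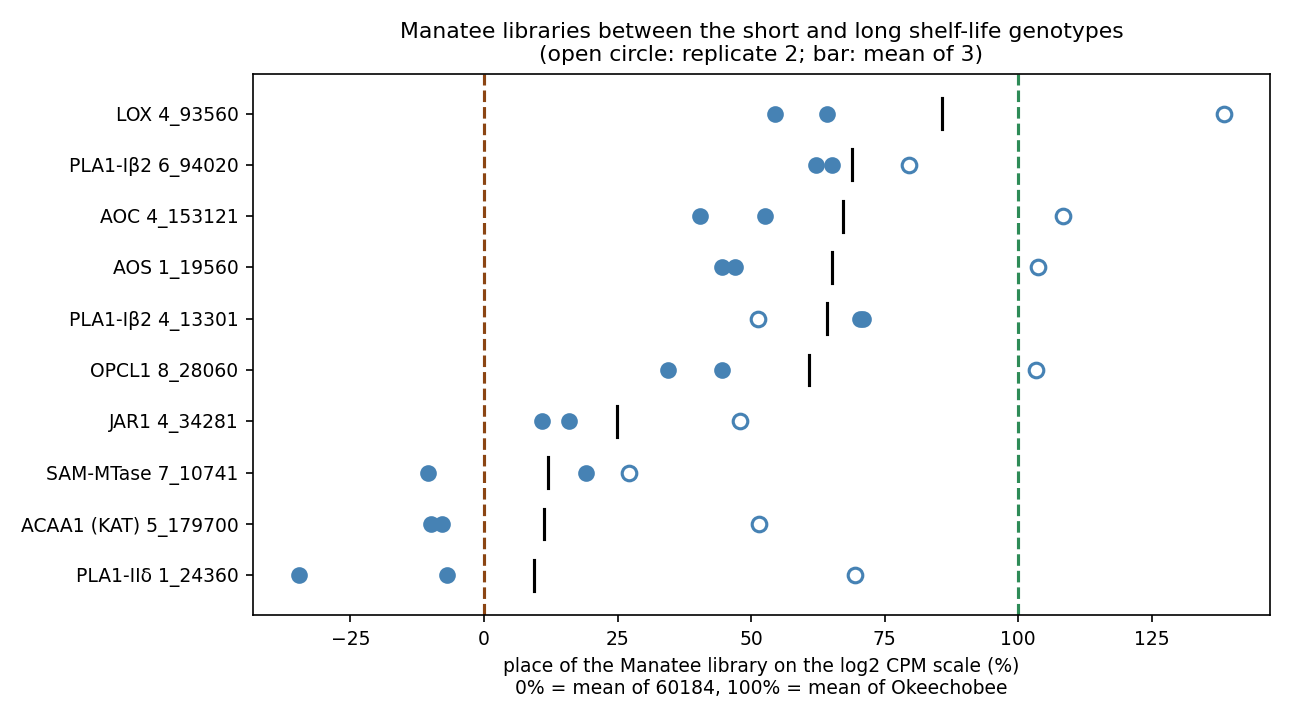
Place of each ‘Manatee’ library between the mean of 60184 (0%) and the mean of ‘Okeechobee’ (100%) on the log2 CPM scale, with 1 row per gene, a bar at the mean of 3 and replicate 2 as the open circle. The bars of 6 members lay at 60.8% or above and those of the other 4 at 24.9% or below, with replicate 2 furthest to the right for all members except PLA1-Iβ2 (4_13301).

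Within genotypes, most members moved together from library to library. Among the 45 pairs of members, 38 had a positive correlation of their deviations from the genotype means over the 9 libraries, with a median r of 0.61 and a range from -0.46 to 0.98. AOS and AOC, neighbours in the pathway, had the highest value. The median r of a member with the other 9 was 0.78 to 0.90 for PLA1-IIδ, LOX, AOS, AOC, OPCL1, ACAA1 and JAR1. It was 0.49 for SAM-MTase, 0.45 for PLA1-Iβ2 (6_94020) and -0.29 for PLA1-Iβ2 (4_13301). These are correlations over 9 libraries that share depth and composition within a library, and ‘Manatee’ replicate 2 carries much of the spread.

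The Rubisco and light-harvesting markers of leaf tissue were highest in 60184, where the members were lowest. The summed level of 11 Rubisco small subunit and light-harvesting genes was 15914 to 30241 CPM in 60184. It was 5989 to 9679 CPM in ‘Manatee’ and 4334 to 9830 CPM in ‘Okeechobee’. This sum was lowest within ‘Manatee’ in replicate 2 and lowest within ‘Okeechobee’ in replicate 1. By the edgeR test, 9 of 11 passed as lower in each cultivar than in 60184. Among all genes, 8.6% were lower in ‘Manatee’ and 15.3% in ‘Okeechobee’. The marker lists came from gene descriptions, most of them for genes that the study had chosen on these libraries. The count of lower markers is therefore a description and not an independent test. Summed levels of 4 vascular markers were 35.2 to 36.4 CPM in 60184, 27.3 to 31.0 CPM in ‘Manatee’ and 30.5 to 37.0 CPM in ‘Okeechobee’, with cellulose synthase A 8 at 0 in every library of both cultivars. In the same order, phloem protein 2-A1 averaged 11.4, 1.86 and 1.92 CPM and the sucrose transporter 3.30, 2.04 and 2.74 CPM. Xylem bark cysteine peptidase 3 went the other way, at 13.1, 25.0 and 28.5 CPM. Stomagen and epidermis-specific EP1, the 2 genes listed as guard cell and epidermis markers, summed to 9.29 to 14.6, 3.68 to 10.6 and 1.72 to 34.0 CPM in the same order. Stomagen averaged 11.1, 6.10 and 2.76 CPM. EP1 rose instead, at 0.542, 1.97 and 11.3 CPM, with a median of 2.89 CPM and a highest library of 30.4 CPM in ‘Okeechobee’. The hour of sampling is not given in the sources used here, and reads outside genes were 5.24% to 12.01% of the uniquely mapped reads per library. The part of leaf composition, sampling hour and library quality in the jasmonate levels was not tested.

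A further list held 13 genes whose descriptions name an enzyme of these families, most of which the study had chosen on these libraries. By description, 10 of them fit a step of jasmonate synthesis, and the other 3 are 2 9-lipoxygenases and a salicylate or benzoate methyltransferase. The 10 include the OPR2 match (4_68701), whose part in the pathway is less clear. In ‘Manatee’ relative to 60184, 9 of the 12 tested were higher by the edgeR test, against the 10.3% of all genes given above, and all 12 estimates were above 0. Of the 10 genes of jasmonate steps, 7 were higher, including 4_68701 and also 2_77700, which had 0 reads in 60184 and entered the test through ‘Manatee’. In ‘Okeechobee’ relative to ‘Manatee’, 3 of 13 were higher (2_77700, 5_148821 and 7_10721) and 2 lower (7_22361 and 7_29201), where 3.74% of all genes were lower, and 7 of 13 passed as higher in ‘Okeechobee’ relative to 60184. Of the 3 higher than in ‘Manatee’, only 2_77700 is of a jasmonate step, and 7_10721, with 3, 5 and 4 reads in ‘Manatee’, entered the test through ‘Okeechobee’ and had to be high there. Of the 7 higher than in 60184, 6 are of jasmonate steps, 2_77700 and 4_68701 among them. Leaving out 1 library took the count of 9 down to 5 for each 60184 replicate and to 8 and 6 for ‘Manatee’ replicates 1 and 3. It took the counts of 3 and 2 in ‘Okeechobee’ relative to ‘Manatee’ to 1 and 0 without ‘Manatee’ replicate 1, to 0 and 0 without replicate 3, and to 0 higher with 1, 0 and 1 lower without ‘Okeechobee’ replicates 1, 2 and 3.

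Before the lipase step, a chloroplast omega-3 fatty acid desaturase (8_11680), which makes linolenic acid, was at 354, 263 and 299 CPM in 60184, at 479, 1952 and 632 CPM in ‘Manatee’ and at 2071, 1852 and 1373 CPM in ‘Okeechobee’. It followed LOX and AOC in form, with ‘Manatee’ replicate 2 in the range of ‘Okeechobee’, and its estimate in ‘Manatee’ relative to 60184 was 1.76 ± 0.51 (edgeR adjusted p = 0.052). Another phospholipase A1 gene (7_29201) had another order, at 107, 83.4 and 79.0 CPM in 60184, 205, 391 and 239 CPM in ‘Manatee’ and 74.4, 37.1 and 92.7 CPM in ‘Okeechobee’. It was highest in ‘Manatee’, by 1.65 ± 0.26 over 60184 (edgeR adjusted p = 0.0071), and ‘Okeechobee’ was lower than ‘Manatee’ with a log2 fold change of -2.00 ± 0.40 (adjusted p = 0.029).

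The 9-lipoxygenases, which oxygenate the fatty acid at another carbon and do not feed jasmonate, also varied. One of them (5_148821) was at 53.6 to 58.1 CPM in 60184, 76.1 to 93.4 CPM in ‘Manatee’ and 128 to 163 CPM in ‘Okeechobee’, 3 ranges without overlap. The other (9_86541) was highest in ‘Manatee’, at 17.7 to 23.1 CPM.

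The reductase step between AOC and OPCL1 had no member. The OPR3 match (5_141041) was at 47.6, 53.5 and 63.6 CPM in 60184, at 102, 311 and 109 CPM in ‘Manatee’ and at 271, 153 and 181 CPM in ‘Okeechobee’. It rose by 1.67 ± 0.44 in ‘Manatee’ over 60184 (edgeR adjusted p = 0.038) and had the form of the chloroplast enzymes, with replicate 2 the highest library of all 9. The gene matched to OPR2 (4_68701), a reductase that acts mainly on other substrates in Arabidopsis, was at 417 to 595 CPM in ‘Manatee’, 382 to 421 CPM in ‘Okeechobee’ and 144 to 179 CPM in 60184.

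For β-oxidation, a multifunctional protein gene matched to MFP2 (2_77700) had no read in the 3 libraries of 60184, while it was at 7.60, 5.30 and 6.08 CPM in ‘Manatee’ and at 10.7, 10.6 and 12.02 CPM in ‘Okeechobee’. With a floor of 3 reads over the genotype, its mean was at least 203-fold higher in ‘Manatee’ and at least 356-fold higher in ‘Okeechobee’ than in 60184. A second MFP2 gene (5_103001) was at 152 to 169 CPM in 60184, 222 to 290.2 CPM in ‘Manatee’ and 274 to 323 CPM in ‘Okeechobee’ and so had reads in all 3 genotypes. Another salicylate or benzoate methyltransferase (7_10721) resembled SAM-MTase, at 9.05, 2.06 and 3.86 CPM in ‘Okeechobee’ and at most 0.177 CPM in ‘Manatee’. It was at 3.18 CPM in replicate 3 of 60184 and at 0 in the other two.

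**Figure D4:**
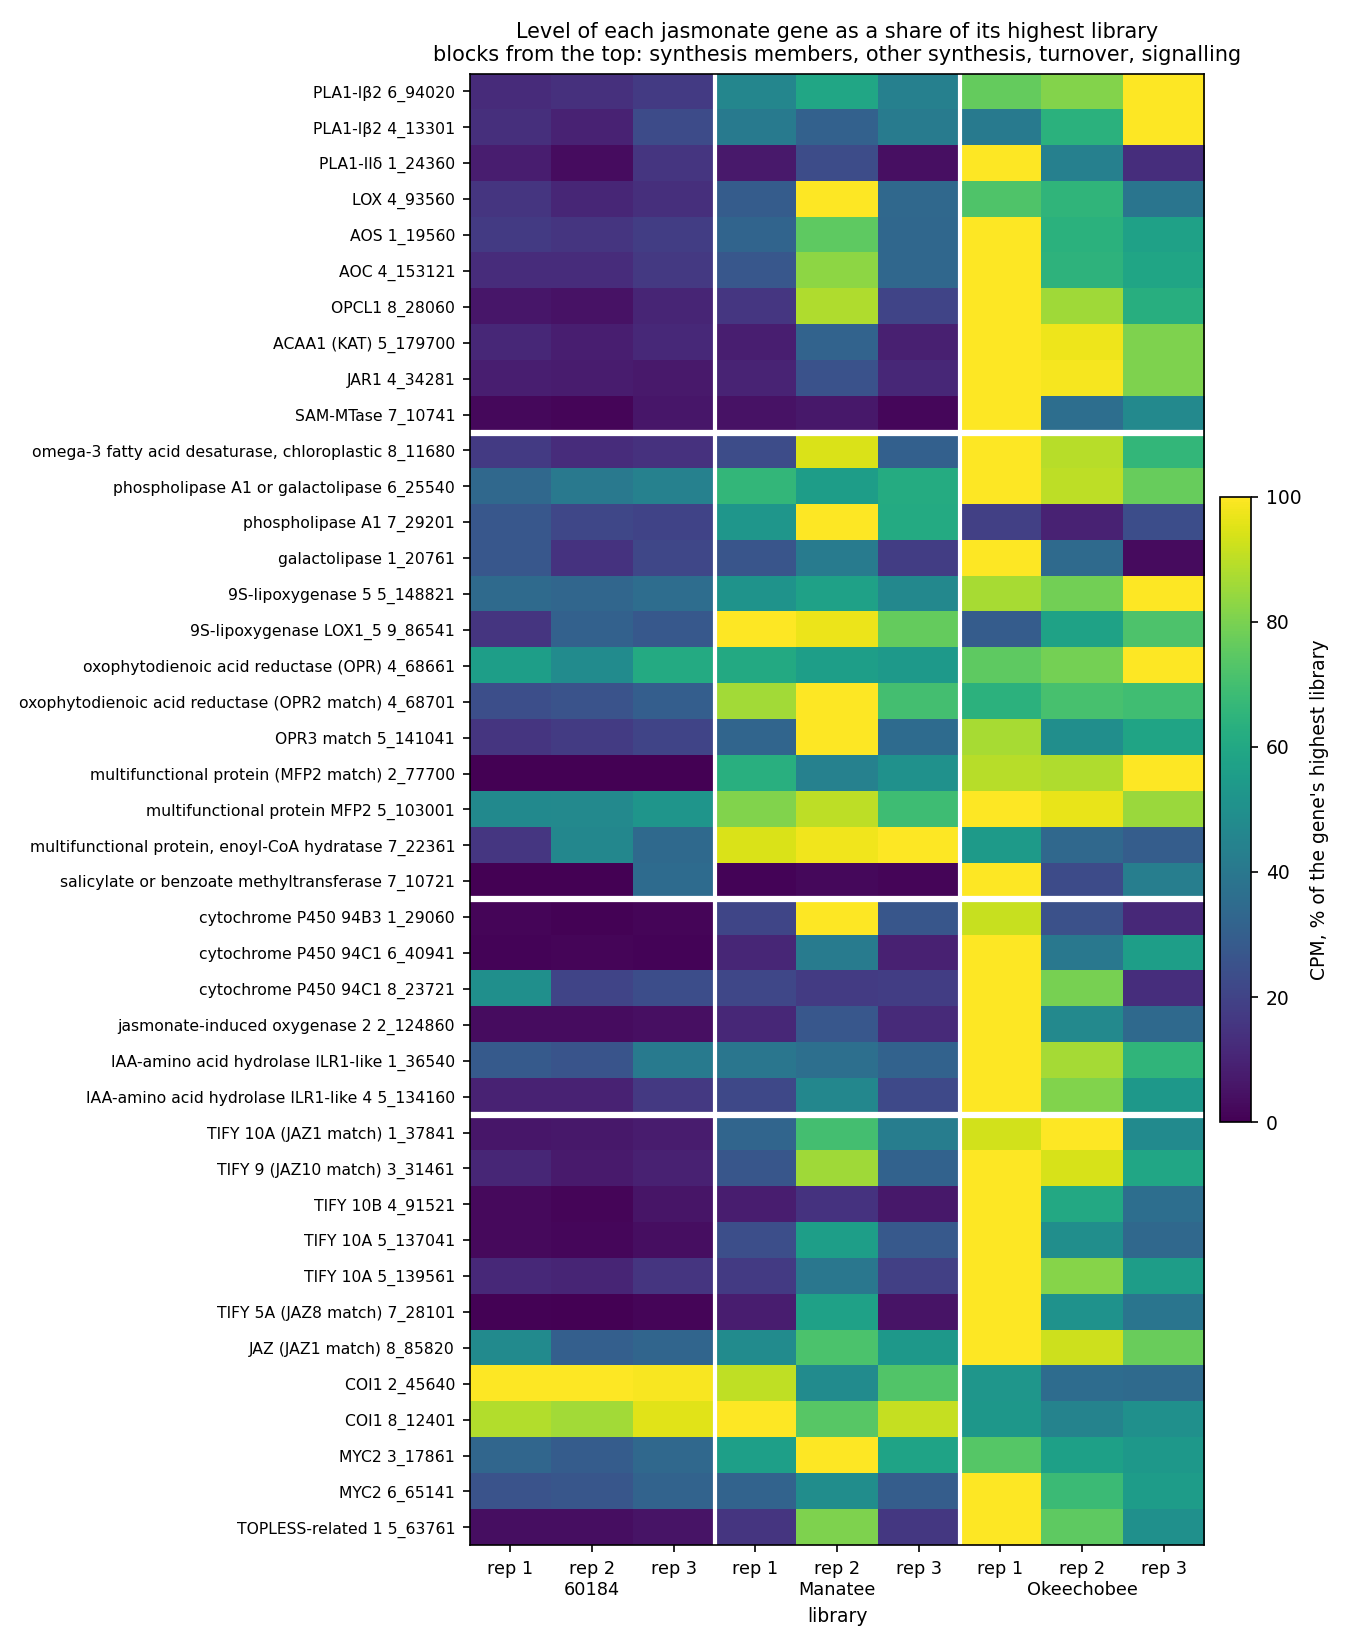
Level of the jasmonate genes in the 9 libraries, each as a percent of the gene’s own highest library, in blocks for the 10 members, 13 other synthesis genes, 6 turnover genes and 12 signalling genes. Most genes, other than the COI1 genes, were darkest in the 3 libraries of 60184 on the left, and the brighter column in the middle is ‘Manatee’ replicate 2.

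Several genes of jasmonate turnover were also higher in the cultivars, in a list that the study had likewise chosen in large part on these libraries. Not all of them remove the hormone. The list includes ILR1-like amidohydrolases (1_36540 and 5_134160), whose relatives in Arabidopsis free auxin or jasmonate from amino acid conjugates. Of 6 turnover genes, 4 were higher in ‘Manatee’ than in 60184 (10.3% of all genes), 1 (an ILR1-like amidohydrolase, 1_36540) was higher in ‘Okeechobee’ than in ‘Manatee’ (4.54%), and 5 were higher in ‘Okeechobee’ than in 60184 (16.2%) by the edgeR test. A second cytochrome P450 94C1 gene (8_23721) passed in none of the 3 comparisons, with 1.30 to 3.16 CPM in 60184, 1.10 to 1.35 CPM in ‘Manatee’ and 0.820 to 6.33 CPM in ‘Okeechobee’. Cytochrome P450 94B3 (1_29060), which in Arabidopsis hydroxylates jasmonoyl-isoleucine, was at 1.83, 0.740 and 1.87 CPM in 60184, at 30.6, 148 and 39.5 CPM in ‘Manatee’ and at 135, 36.6 and 17.2 CPM in ‘Okeechobee’. Its log2 fold change in ‘Manatee’ over 60184 was 5.63 ± 0.76 (edgeR adjusted p = 0.0037), above that of any member. Cytochrome P450 94C1 (6_40941), which oxidises the hormone further, was at 0.899 to 1.05 CPM in 60184, 7.59 to 34.0 CPM in ‘Manatee’ and 32.5 to 81.6 CPM in ‘Okeechobee’. Jasmonate-induced oxygenase 2 (2_124860), which inactivates jasmonic acid, had 3 ranges without overlap, at 7.26 to 8.31, 23.5 to 56.8 and 71.7 to 209 CPM.

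The list of signalling genes likewise came from descriptions, most of them for genes that the study had chosen on these libraries. In signalling, 6 of 12 genes were higher in ‘Manatee’ than in 60184 by the edgeR test, where 10.3% of all genes were. One of these 6 (7_28101) had 10, 2 and 22 reads in 60184, under the filter of 10 counts in 3 libraries. It entered the test through its ‘Manatee’ libraries and is named for that reason. The 3 with the smallest p were JAZ repressors of the TIFY family, which COI1 marks for breakdown when the hormone is bound. They were TIFY 10A (5_137041), with a log2 fold change of 3.70 ± 0.42 (adjusted p = 0.0018), TIFY 10A (1_37841), with 2.88 ± 0.30 (adjusted p = 0.0011), and TIFY 9 (3_31461), with 2.45 ± 0.46 (adjusted p = 0.013). Against ‘Manatee’, 2 of the 12 genes were higher in ‘Okeechobee’, TIFY 10B (4_91521) and TIFY 10A (5_139561), and 1 was lower, COI1 (8_12401), where 4.54% and 3.74% of all genes were. These 3 are named because the counts are small, after their values had been seen.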

How the data were processed

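The authors made poly(A) libraries from leaf RNA, trimmed the reads, mapped them to the L. sativa v5 assembly with STAR, removed PCR duplicates with SAMtools and their own scripts, and counted uniquely mapped reads per gene with HTSeq. The deposited values are raw counts per gene without normalization. Only uniquely mapped reads were counted, so reads shared by near-identical gene copies may be missing. Whether this touches the PLA1-Iβ2 or methyltransferase genes was not tested, as their sequences were not compared. The 5 summary lines of each file were left out of library sizes. Reads outside genes were 5.24% to 12.01% and ambiguous reads 1.15% to 1.44% of uniquely mapped reads.

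Each pair of genotypes was fitted over its 6 libraries in R 4.3.3 with edgeR 4.0.16 (TMM, a filter of 10 or more counts in 3 or more libraries, robust quasi-likelihood F test, Benjamini-Hochberg over all tested genes, called at an adjusted p under 0.05). CPM used TMM factors over all 9 libraries, and log2 CPM a prior count of 2. Single genes were not tested by permutation, since 3 against 3 libraries cannot give an exact two-sided p below 0.1. The study calls its replicates biological. The labels do not name the plants behind each library, and the p-values measure the spread between these libraries. No pair of replicates agreed within sampling noise (chi-square per degree of freedom of 9.58 to 116).

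The 10 members, the gene lists, the tests and the named genes (all members, any further synthesis or turnover gene, 3 signalling genes with the smallest p in ‘Manatee’ relative to 60184, and the 6 genes most like the members) were chosen with earlier results of these data known. Lists came from gene descriptions in copies of the supplementary tables, which describe 3733 genes, most of them chosen by the study on these libraries. Alternatives were DESeq2 1.42.0, DESeq2 size factors, upper quartile scaling, no filter on low counts, a filter of 1 CPM, all 9 libraries in 1 model, the replicate number as a block, each library left out, and the study’s thresholds (a mean raw count of 100 or more and an absolute log2 fold change of 2 or more). The values without ‘Manatee’ replicate 2, the counts for jasmonate steps alone and the rule of 2 times both other libraries were added after the levels were seen. The fit was tested on simulated counts. Columns of the study’s own fold changes, RT-qPCR and storage data were not used here.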

Additional observations from a re-analysis of the deposited data

How the results depend on the processing

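Under DESeq2, 7 members were higher in ‘Manatee’ than in 60184 and 5 in ‘Okeechobee’ than in ‘Manatee’, and the scaling, filter and joint-model alternatives gave 5 to 6 and 4. In ‘Okeechobee’ relative to 60184 the count of members was 9 or 10 under the scaling, filter, model, block and left-out-library alternatives, PLA1-IIδ being the gene lost. With the thresholds adapted from the study, the counts in the comparisons with ‘Manatee’ were 2 and 3. For the 13 further synthesis genes those thresholds gave 1 higher in ‘Manatee’ than in 60184, 1 higher and 1 lower in ‘Okeechobee’ than in ‘Manatee’, and 2 higher in ‘Okeechobee’ than in 60184.

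With 1 library left out, the count of members ran from 1 to 7 in ‘Manatee’ relative to 60184 and from 1 to 6 in ‘Okeechobee’ relative to ‘Manatee’. The count of further synthesis genes ran from 5 to 9 in the former, and in the latter from 0 to 3 higher and from 0 to 2 lower. These fits also test with fewer libraries. The share of all genes called higher fell in each of them except without ‘Manatee’ replicate 2. There it was 10.4% beside 10.3% in ‘Manatee’ relative to 60184, and 5.99% beside 4.54% in ‘Okeechobee’ relative to ‘Manatee’. Without ‘Manatee’ replicate 2, the place of ‘Manatee’ between 60184 and ‘Okeechobee’ turned from 9.26% to -20.8% for PLA1-IIδ and from 11.2% to -8.93% for ACAA1.

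With the replicate number as a block, 2 members were higher in ‘Manatee’ than in 60184 and 2 in ‘Okeechobee’ than in ‘Manatee’, and 5, 1 and 0 further synthesis genes were called higher, higher and lower there. The deviations of libraries with the same number correlated at -0.30 to 0.28 over genes. Libraries with different numbers were not compared in this way, so these values cannot tell whether the numbers pair the samples. The counts under the block are therefore given beside the main counts.

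Depth limits SAM-MTase most, with 48 reads in 60184. With 3 libraries a genotype, 1 library such as ‘Manatee’ replicate 2 can move a mean and its error together.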

Other observations

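The genes most like the members were sought among 22648 genes by the correlation of log2 CPM with the members’ mean standardized profile over the 9 libraries, as a description. An r of 0.9 or more was reached by 1120 genes, 4.95% of those compared, since many genes order the genotypes in the same way. The described genes with the highest r were a gene of the DUF641 family (5_126500, r = 0.994), a haloacid dehalogenase-like hydrolase (9_77320, r = 0.993), a receptor-like kinase of the SD1-8 type (7_18721, r = 0.993), the amidohydrolase ILR1-like 4 (5_134160, r = 0.992) and a malectin-like receptor kinase (4_167201, r = 0.991). The nearest gene without a description was 8_90060, with r = 0.991. When deviations from the genotype means were used instead, these 6 genes had r from 0.89 to 0.97.

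The hydrolase 9_77320 was at 13.9, 13.7 and 24.7 CPM in 60184, at 67.2, 262 and 78.8 CPM in ‘Manatee’ and at 711, 533 and 394 CPM in ‘Okeechobee’. Its ‘Manatee’ replicate 2 stood above the other replicates, as it did for OPCL1. ILR1-like 4, whose relatives in Arabidopsis free auxin or jasmonate from amino acid conjugates, was at 13.1, 13.1 and 22.9 CPM in 60184, at 29.6, 63.1 and 30.0 CPM in ‘Manatee’ and at 136, 111 and 72.5 CPM in ‘Okeechobee’, in 3 ranges that did not overlap. It was the jasmonate gene nearest to the members among the further synthesis, turnover and signalling genes.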
